A study of Mus musculus with 6 samples.

Results

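The 35 genes described here were 19 genes of glycolytic enzymes, 4 genes of glucose and lactate transporters, 3 genes of kinases that set glycolytic flux, and 9 genes of the hypoxia-inducible factor (HIF) system and its response. They were named members of both pathways and were matched by symbol to the 55487 gene IDs of the count table. Of the enzymes, Pfkm, Pgam2 and Eno3, the isoforms of adult skeletal muscle, were kept apart from the 16 general ones. All 35 passed the filter of at least 10 counts summed over the libraries, as did 26596 gene IDs in all. Levels are given as CPM, counts scaled to a common library total by TMM, unless they are named otherwise. Aldoa matched a pair of gene IDs, of which the minor one held 53 to 100 counts a library against 36527 to 86814 for the major one, and only the major one was used.

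RNA-Seq was performed on rib cages of mouse embryos at 16.5 dpc (days post coitum), cleaned of connective tissue, with 3 embryos in each group. The controls E420, E434 and E435 were labelled wild type. The mutants E423, E433 and E440 were labelled Col2-cre;Foxc1-/-;Foxc2-/-, meaning that floxed Foxc1 and Foxc2 alleles were deleted by a Cre recombinase under a type II collagen promoter, which is active in chondrocyte progenitors. In the paper, control embryos of the skeleton stains lacked the Cre transgene. The females of its timed crosses were homozygous for the floxed alleles, so the label wild type may not mean unmodified alleles. The background was mixed between C57B6 and Black Swiss, and whole rib cages were sequenced, so that any other tissue left on the ribs was included. The question put to the data was whether transcripts for glycolysis and the oxygen response differed between the groups.

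Glycolysis turns glucose into pyruvate, and cells with little oxygen reduce the pyruvate to lactate and export it. Cartilage has no blood vessels, and its chondrocytes depend on glycolysis and on HIF-1, a transcription factor whose alpha subunit is hydroxylated by oxygen-dependent enzymes, bound by the VHL protein and degraded when oxygen is present. Skeletal muscle is the other tissue of the rib cage with very high glycolytic capacity, and during its maturation it replaces general isoforms of several glycolytic enzymes by muscle-specific ones.

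The count table held 37853988 to 47794799 counts a library, where each end of a read pair was counted on its own, and 19387468 to 24443563 fragments in the second set of files. Foxc1 was at 23.1, 36.9 and 24.2 CPM in the controls (E420, E434, E435) and at 3.56, 9.61 and 3.51 CPM in the mutants (E423, E433, E440), and Foxc2 was at 1.99, 4.83 and 3.22 against 0.650, 1.14 and 0.737 CPM, so that the mutants were below every control for both targeted genes. The libraries did not vary equally. Between E420 and E435 the median chi-square of a gene's fragment counts was 1.92 times that of sampling noise, and between E423 and E440 it was 1.47 times, against 8.60 to 15.8 times for the other 4 pairs within a group, and no pair agreed within sampling noise. The labelled tissue was checked by its markers. Summed over 15 chondrocyte markers, the level was 2150, 28010 and 2046 CPM in the controls (E420, E434, E435) and 745.3, 10400 and 721.8 CPM in the mutants (E423, E433, E440), so that E434 and E433 held far more cartilage transcripts than the others of their group. Over 14 skeletal muscle markers, led by Acta1, it was 17540, 28180 and 17940 against 38290, 21970 and 37410 CPM. Keratinocyte markers, 10 genes led by Krt10, were at 18.7 CPM in E434, at 3430 to 6775 CPM in E420, E435 and E433, and at 28430 and 28580 CPM in E423 and E440. No chondrocyte or muscle marker was at 0 in all libraries of a group. In whole tissue, a larger share of cells of a type and more RNA per cell cannot be told apart, and this holds for every value that follows.

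Short stretches of promoter are shown for some general enzymes and muscle isoforms, a transporter and a HIF response gene. A HIF response element has a core of ACGTG or GCGTG, and CAGCTG is a form of the E-box bound by myogenic factors. Both motifs were searched on both strands in the 250 bases before each RefSeq start site (mouse build GRCm38.p6), so the reverse complements CACGT and CACGC are the same core, and CACGTG counts on both strands. Capitals mark the match, each line is the strand of the gene, and the coordinates are those of the window.
Pgk1, chrX:106186935-106186969, plus strand: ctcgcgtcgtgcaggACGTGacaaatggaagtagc
Ldha, chr7:46845742-46845776, plus strand: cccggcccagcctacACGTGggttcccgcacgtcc
Aldoa, chr7:126799361-126799395, minus strand: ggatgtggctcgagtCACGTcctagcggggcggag
Slc2a1, chr4:119108694-119108728, plus strand: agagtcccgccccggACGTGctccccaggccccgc
Bnip3, chr7:138909594-138909628, minus strand: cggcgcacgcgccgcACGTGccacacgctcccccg
Eno3, chr11:70657031-70657065, plus strand: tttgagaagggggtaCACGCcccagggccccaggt
Pgam2, chr11:5803901-5803936, minus strand: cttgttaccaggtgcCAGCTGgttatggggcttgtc

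Promoters of 33 members were in the RefSeq table, all but those of Epas1 and Slc2a3. An ACGTG or GCGTG core stood in 27 of the 33 (81.8%), against 41.5% of 27025 genes with a promoter in the table. The stricter ACGTG stood in 17 of 33 (51.5%) against 18.5%. These promoters also held more G and C, with a median of 60.4% against 52.4% over all starts, and the part of base composition in the difference was not tested. Ldha and Bnip3 each had 5 cores at a start, Slc16a1 and Ankrd37 each had 4, and Gpi1, Tpi1, Eno2, Pgam2, Vhl and Car12 had none in this window. CAGCTG stood in 6 of 33 (18.2%) against 14.7%, and of the 3 muscle isoforms only Pgam2 held it. A match is a description of letters and not of a bound site.

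None of the 35 genes passed the limits of an adjusted p of 0.1 and a log2 fold change of 1 in edgeR's quasi-likelihood test with Benjamini-Hochberg adjustment, where 17 of all 26596 genes did (0.0639%). The largest differences upwards were in Eno3, Pgam2 and Aldoa, at log2 fold changes of 0.74, 0.64 and 0.57, and the largest downwards were in the glucose transporter Slc2a3 and the carbonic anhydrase Car9, at -1.39 and -0.92. At an unadjusted p under 0.05 there were 5 of the 35 members, against 10.6% of all genes. Hk2, Pfkp, Pgam2 and Eno3 were the higher ones, where the share of all genes was 5.9%, and Vhl was the lower one, where it was 4.7%. DESeq2 also called no member while it called 1.79% of all genes, and gave an unadjusted p under 0.05 to 8 members against 11.1%. The 3 mutants lay wholly above or wholly below the 3 controls in 3 members, Pfkp above and Slc16a1 and Vhl below, against 15% of all genes, 6.81% above and 8.21% below. In the direction of the difference, 27 members were above 0 and 8 below, but 24 and 11 with library totals in place of TMM, where Pgam1, Bnip3 and Ankrd37 stood below 0. The median log2 fold change was 0.16 against 0.008 over all genes tested.

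**Figure D1:**
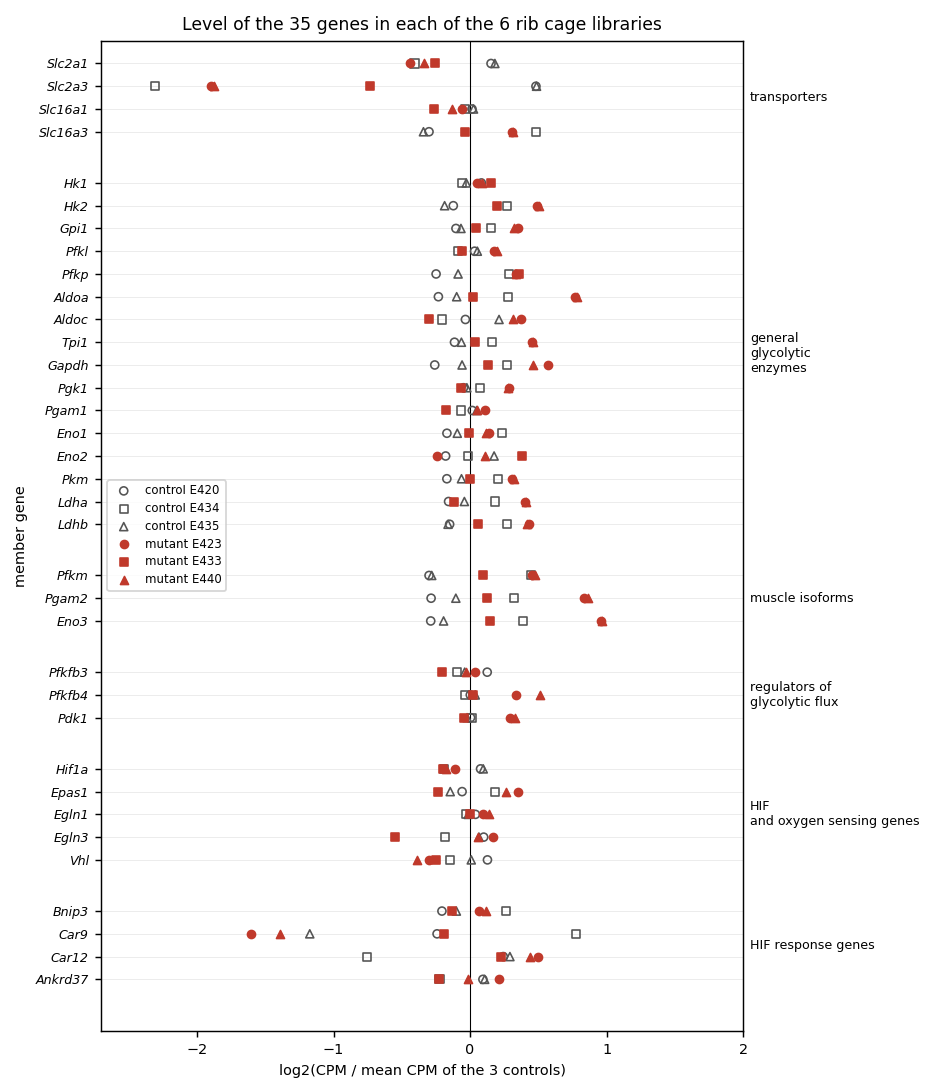
Level of each of the 35 genes in each library, as log2 of its CPM over the mean of the 3 controls, grouped by role; open grey symbols are controls and filled red symbols mutants. In most glycolytic enzymes E423 and E440 lie to the right of every control while E433 lies among the controls, and Slc2a3 and Car9 have the widest spread.

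Levels were compared between genes per length, in TPM (fragments per transcript length, scaled to a common total). Aldoa stood highest of the 35 in both groups, at 1288 ± 286.7 TPM (SD, n = 3) in controls and 1854 ± 420.2 TPM in mutants. In controls Tpi1 followed at a mean of 911.7 TPM, then Gapdh at 848.3, Ldha at 786.6 and Eno3 at 711.8. In mutants Eno3 followed at 1130 TPM, then Tpi1 at 1098, Gapdh at 1055 and Ldha at 896.9. The order of these 4 genes was within the spread of the libraries, since Eno3 alone ran from 589.8 to 1285 TPM. Next came Pkm at 559.8 TPM, Eno1 at 483.5 and Pgam2 at 479.6 in controls, and Pgam2 at 724.2 TPM, Pkm at 636.7 and Eno1 at 509.2 in mutants, with Pkm and Pgam2 overlapping within each group. The following means are over all 6 libraries. The HIF subunit gene Hif1a was at 45.7 TPM, close to Pdk1 at 45.5 and Egln1 at 45.5, and Slc2a1 at 39.5 TPM was above Slc2a3 at 11.2 TPM. Car9, a carbonic anhydrase widely used as a marker of hypoxia, was lowest at 1.01 TPM.

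Of the 16 general enzymes, all had a log2 fold change of 0 or above, from 0.00 for Pgam1 to 0.57 for Aldoa, with a median of 0.23, although Pgam1 stood at -0.05 with library totals in place of TMM, and none passed the test. The first step, phosphorylation of glucose, is catalysed by hexokinases. Hk2, the inducible hexokinase, was at 69.3, 90.8 and 66.3 CPM in the controls (E420, E434, E435) and at 105.8, 86.5 and 107.2 CPM in the mutants (E423, E433, E440). The groups overlapped, because E433 was below E434, and the difference of 0.40 ± 0.15 (log2, SE) had an adjusted p of 0.437 (edgeR). Hk1, the constitutive hexokinase, hardly varied, between 45.1 and 52.2 CPM over all libraries.

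Gpi1, glucose-6-phosphate isomerase, was at 270.8 to 324.3 CPM in controls and 300.5 to 370.4 CPM in mutants. Pfkp, the platelet isoform of the phosphofructokinase that commits sugar to glycolysis, was at 33.4, 48.4 and 37.4 CPM in controls and 50.2, 51.0 and 50.1 CPM in mutants. Its mutants were all above its controls, but by little over E434, and the difference of 0.34 ± 0.14 had an adjusted p of 0.465 (edgeR). In TPM the groups overlapped, with E434 at 24.65 and the mutants (E423, E433, E440) at 22.12, 23.32 and 21.68. The liver isoform Pfkl was at 102.8 to 113.6 CPM in controls and 105.3 to 125.6 CPM in mutants.

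Aldoa, the aldolase of muscle and most other tissues, was at 929.6, 1326 and 1020 CPM in the controls (E420, E434, E435) and at 1862, 1107 and 1881 CPM in the mutants (E423, E433, E440). Thus E423 and E440 were above every control and E433 was below E434, and the difference of 0.57 ± 0.25 had an adjusted p of 0.486 (edgeR). The same order of libraries was found in Tpi1, triosephosphate isomerase, with 759.5, 920.3 and 786.7 CPM in controls and 1123, 841.4 and 1130 CPM in mutants. Aldoc, the brain aldolase, was rare at 5.661 to 8.996 CPM over all libraries and made up under 1% of aldolase transcripts. The Aldoa share of their TPM was 99.47% or more in each library.

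Gapdh, the dehydrogenase often taken as a reference gene, was at 62.1, 89.5 and 71.3 CPM in controls and 110.3, 81.4 and 102.1 CPM in mutants, a difference of 0.40 ± 0.17 with an adjusted p of 0.477 (edgeR). Its count was depressed by pseudogenes, as described further on. Pgk1, phosphoglycerate kinase, was at 288.5 to 313.3 CPM in controls and 363.8, 285.3 and 362.6 CPM in the mutants (E423, E433, E440), with E433 below every control. Pgam1, the general phosphoglycerate mutase, had the same mean in both groups, 168.5 ± 7.07 CPM (SD, n = 3) in controls and 168.6 ± 16.99 CPM in mutants. Eno1, the general enolase, was at 357.5 ± 54.5 CPM in controls and 379.0 ± 20.5 CPM in mutants, and the neuronal Eno2 was at 5.39 to 8.28 CPM over all libraries.

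Pkm, pyruvate kinase, was at 631.3, 819.9 and 680.0 CPM in controls and at 877.8, 711.2 and 889.2 CPM in mutants. Ldha, the lactate dehydrogenase subunit that favours lactate, was at 695.1, 877.8 and 753.2 CPM in controls and at 1022, 713.7 and 1028 CPM in mutants. In both genes E434 was the highest control and E433 the lowest mutant, and the groups overlapped. Ldhb, the subunit of heart, was at 76.4 ± 13.5 CPM in controls and 94.7 ± 13.1 CPM in mutants. The Ldha share of the TPM of both subunits was 87.4% to 89.7% in every library.

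The muscle isoforms had a median log2 fold change of 0.64. Eno3 and Pgam2 stood above every general enzyme in the size of the difference, and Pfkm stood below Aldoa, Hk2 and Gapdh. Eno3, the muscle enolase (chr11:70657202-70662513 on GRCm38), was at 538.3, 859.4 and 574.6 CPM in the controls (E420, E434, E435) and at 1276, 727.0 and 1281 CPM in the mutants (E423, E433, E440). Pgam2, the muscle phosphoglycerate mutase (chr11:5801640-5803733), was at 197.3, 300.6 and 223.7 CPM in controls and at 428.1, 262.6 and 437.5 CPM in mutants. Pfkm, the muscle phosphofructokinase (chr15:98092589-98132451), was at 211.4, 355.5 and 214.3 CPM in controls and at 357.0, 278.3 and 362.6 CPM in mutants. In all 3 genes E423 and E440 were above the controls, E434 was the highest control and E433 the lowest mutant, and E433 was below E434. The differences were 0.74 ± 0.28 for Eno3, 0.64 ± 0.24 for Pgam2 and 0.35 ± 0.23 for Pfkm, with adjusted p-values of 0.447, 0.442 and 0.620 (edgeR). For Pfkm the difference was 0.64 without E434, 0.22 without E420 and 0.23 without E435. Over the alternatives that kept all libraries, the adjusted p of Eno3 ran from 0.118 with DESeq2 to 0.977 with muscle markers as a covariate.

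The muscle isoform was the major transcript of its family in every library. Eno3 was 57.6%, 61.4% and 57.9% of the TPM of the 3 enolases in the controls (E420, E434, E435) and 71.6%, 60.6% and 72.1% in the mutants (E423, E433, E440). Pgam2 was 57.9%, 68.9% and 60.2% of the phosphoglycerate mutases in controls and 73.9%, 67.5% and 75.0% in mutants. Pfkm was 62.2%, 72.5% and 60.9% of the phosphofructokinases in controls and 70.4%, 67.6% and 70.3% in mutants. The share of E433 was in each family below that of E434. Log2 ratios of counts per length do not depend on the scaling between libraries. They used the summed exon length of each gene, 1739 bases for Eno3 and 5379 for Eno1. Reads at pseudogenes, described further on, were not in these counts. The ratios are thus not on the scale of the TPM shares, and only their differences between groups are compared. Eno3 to Eno1 was 2.49 ± 0.15 (SD, n = 3) in controls and 3.11 ± 0.39 in mutants. The difference of 0.63 had p = 0.2 in an exact permutation test over libraries, 2-sided, where the smallest p that 3 against 3 allows is 0.1. Pgam2 to Pgam1 differed by 0.63 with an exact p of 0.2, Pfkm to Pfkl by 0.28 with an exact p of 0.4, and Pfkm to Pfkp by 0.03 with an exact p of 1.0. Pfkm to Pfkl differed by 0.57 without E434 and by 0.13 without E420 or without E435. Adjusted over the 4 ratios, the exact p-values were 0.4, 0.4, 0.533 and 1.0.

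**Figure D2:**
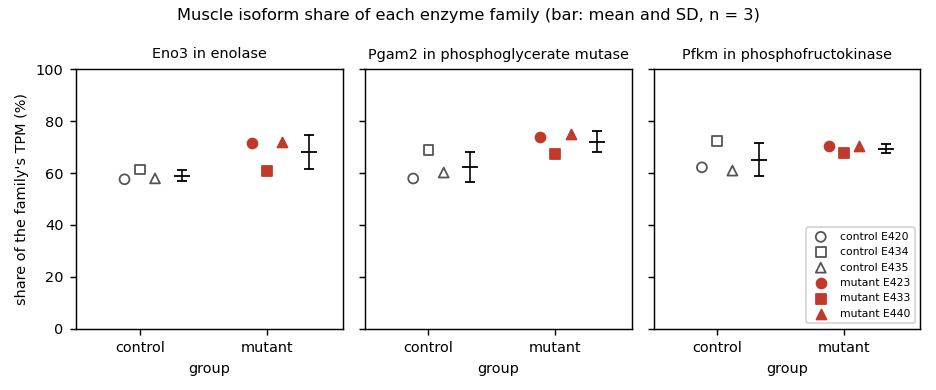
Share of each family's TPM held by its muscle isoform, in percent, for Eno3, Pgam2 and Pfkm, with controls as open and mutants as filled symbols and bars for the mean and SD (n = 3). For Eno3 and Pgam2 the mutants E423 and E440 lie above all controls, and E433 lies below E434.

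Of the 4 transporters 3 stood below 0, with a median log2 fold change of -0.25, and none passed the test. Slc2a1, which encodes the widespread glucose transporter GLUT1, was at 90.1, 61.1 and 91.9 CPM in the controls (E420, E434, E435) and at 59.7, 67.7 and 64.2 CPM in the mutants (E423, E433, E440). The control E434 lay among the mutants, and the difference of -0.34 ± 0.16 had an adjusted p of 0.516 (edgeR). Slc2a3, which encodes the high-affinity GLUT3, was at 62.1, 8.98 and 62.3 CPM in controls and at 11.9, 26.8 and 12.1 CPM in mutants. Here E434 was the lowest of all 6 libraries and E433 the highest mutant, whereas in Eno3 E434 was the highest control and E433 the lowest mutant, and the adjusted p was 0.537 (edgeR). GLUT3 is known from neurons and white blood cells among others. Markers of Schwann cells and neurons, 8 genes, were summed at 149.7, 134.1 and 139.3 CPM in controls and at 180.9, 159.4 and 176.4 CPM in mutants. Markers of erythroid cells, 9 genes led by Hbb-bs, were at 25190, 22600 and 27800 CPM in controls and at 9372, 18230 and 9517 CPM in mutants, where E434 was likewise the lowest control and E433 the highest mutant, and their part in the level of Slc2a3 was not tested. Macrophage markers, 7 genes, were summed at 256.3, 263.0 and 251.1 CPM in controls and at 216.3, 239.4 and 214.6 CPM in mutants, where E434 was the highest control, unlike in Slc2a3, and E433 the highest mutant.

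Slc16a1, which encodes the lactate and pyruvate carrier MCT1, was at 66.2, 63.8 and 66.7 CPM in controls and at 62.9, 54.6 and 59.9 CPM in mutants. All mutants were below all controls, by a log2 difference of -0.15 ± 0.08 with an adjusted p of 0.542 (edgeR). Slc16a3, which encodes the lactate exporter MCT4 of glycolytic muscle, was at 65.7, 113.3 and 63.9 CPM in controls and at 100.1, 78.7 and 100.8 CPM in mutants, with E434 highest of all.

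Of the regulators, Pfkfb3 and Pfkfb4 make the activator of phosphofructokinase, and Pdk1 keeps pyruvate out of the citric acid cycle. Pfkfb3 was at 22.1 ± 1.79 CPM (SD, n = 3) in controls and 21.2 ± 1.84 CPM in mutants, a difference within the spread of either group. Pfkfb4 was at 11.02, 10.72 and 11.30 CPM in controls and at 13.9, 11.2 and 15.7 CPM in the mutants (E423, E433, E440), and Pdk1 was at 126.0, 127.2 and 123.8 against 153.8, 122.0 and 157.9 CPM. Their controls were close to each other, E434 included, and E433 stood among or below them. Neither difference passed the test, with adjusted p-values of 0.518 and 0.556 (edgeR).

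The HIF and oxygen sensing genes had a median log2 fold change of -0.08. Hif1a, which encodes HIF-1 alpha, was at 145.3, 120.9 and 147.3 CPM in controls and at 127.5, 120.0 and 122.0 CPM in mutants, and E434 was again among the mutants (-0.16 ± 0.10, adjusted p of 0.587 in edgeR). Epas1, which encodes HIF-2 alpha, was at 43.4 ± 5.26 CPM (SD, n = 3) in controls and 48.2 ± 9.87 CPM in mutants. Egln1, the prolyl hydroxylase that marks HIF alpha subunits for degradation, ranged only from 114.2 to 128.4 CPM over all libraries. Egln3, a hydroxylase that HIF itself induces, was at 47.9, 39.5 and 46.8 CPM in controls and at 50.3, 30.5 and 46.5 CPM in mutants, where E433 was lowest of all. Vhl, which encodes the ubiquitin ligase subunit that binds hydroxylated HIF alpha, was at 46.5, 38.4 and 42.8 CPM in controls and at 34.5, 35.8 and 32.5 CPM in mutants. Vhl had the smallest p of the 35 genes and groups that did not overlap, but its difference of -0.31 ± 0.10 had an adjusted p of 0.395 (edgeR).

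The HIF response genes showed no common direction, with a median log2 fold change of 0.01. Bnip3, a mitophagy receptor, was at 34.6 ± 6.11 CPM (SD, n = 3) in controls and 35.1 ± 3.10 CPM in mutants. Ankrd37, a small ankyrin repeat protein induced by HIF-1, was at 4.17 ± 0.52 CPM in controls and 4.18 ± 0.63 CPM in mutants. Car12, a membrane carbonic anhydrase, was at 23.6, 11.8 and 24.4 CPM in controls and at 28.2, 23.4 and 27.1 CPM in mutants, where E434 was the only low library. Car9 was at 1.30, 2.63 and 0.680 CPM in controls and at 0.505, 1.35 and 0.585 CPM in mutants, at which level 1 count was worth 0.0209 to 0.0264 CPM. E434 and E433 were the highest of their groups for Car9, as they were for chondrocyte markers, and the difference of -0.92 ± 0.59 had an adjusted p of 0.614 (edgeR).

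Seen by library, E423 and E440 were both above all 3 controls in 21 of the 35 genes, against 23.7% of all genes, and in 13 of the 16 general enzymes, all but Hk1, Eno1 and Eno2. E433 was above all controls in 3 genes, Hk1, Pfkp and Eno2, against 25.2% of all genes, and lay within the range of the controls in 21, against 51.3%. Among controls, E434 was the highest in 19 genes, against 37.8%. E423 and E440 are the pair that differed by 1.47 times sampling noise. The spread over all libraries was ordinary, since the highest CPM was under 2 times the lowest in 29 of 35 genes (82.9%) and in 82.0% of the 16568 genes with a mean of at least 1 CPM.

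Skeletal muscle markers were high in the same libraries as the enzymes. As a median log2 ratio to the mean of the controls, the 14 muscle markers were at -0.23, 0.41 and -0.18 in the controls (E420, E434, E435) and at 0.77, 0.12 and 0.72 in the mutants (E423, E433, E440). The muscle isoforms stood at -0.26, 0.42 and -0.16 against 0.85, 0.15 and 0.89, and the general enzymes at -0.12, 0.18 and -0.05 against 0.35, 0.04 and 0.33. In all 3 lists E423 and E440 were highest, then E434, then E433, and E420 and E435 were lowest. None of these muscle markers is a member of the 35. Of the muscle markers 13 of 14 stood above 0, with a median log2 fold change of 0.53, and edgeR called none, with 3 at an unadjusted p under 0.05 (0 called and 8 at that p in DESeq2). The shares of all genes at that p were 10.6% in edgeR and 11.1% in DESeq2. With the mean log2 level of the muscle markers as a covariate, the median log2 fold change of the general enzymes was 0.02 and that of the muscle isoforms 0.09, Eno3 and Pgam2 each stood at 0.09 and Aldoa at 0.02. In that fit no member had an unadjusted p under 0.05, against 5.19% of all genes. Chondrocyte markers had the opposite order in mutants, with medians of -2.60, 1.23 and -2.56, and with them as a covariate Eno3 stood at 0.71, Pgam2 at 0.61 and Aldoa at 0.50. Muscle was not alone in its order. Brown adipocyte markers, 5 genes, stood at -0.29, 0.34 and -0.08 in controls and at 0.65, -0.12 and 0.61 in mutants. E423 and E440 were also highest for keratinocyte markers (4.56 and 4.66) and adipocyte markers (4.96 and 4.56), and lowest for erythroid markers (-1.52 and -1.46). The part of any cell type in the enzyme levels was not tested.

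Members at an unadjusted p under 0.05, and members with groups that did not overlap, were more numerous when E434 or E433 was left out. Over all genes, 17 were called with all libraries, 17 without E434 and 1087 without E433. Without E433, no member passed both limits, against 4.21% of all genes, but 7 had an adjusted p under 0.1 (edgeR), against 13.4% of all genes. These were Eno3, Pgam2, Aldoa, Tpi1, Pgk1, Pdk1 and Pfkfb4, all higher in E423 and E440, by 0.96 for Eno3, 0.85 for Pgam2 and 0.78 for Aldoa. In that fit 15 members had an unadjusted p under 0.05, against 25.0% of all genes, and 24 had groups that did not overlap, against 47.3%. Without E434, no member was called, against 0.0654% of all genes, 17 had an unadjusted p under 0.05, against 10.7%, and 18 had groups that did not overlap, against 29.6%. Without both, 3 members passed both limits, against 8.25% of all genes, with Eno3 at 1.2, Pgam2 at 1.04 and Slc2a3 at -2.37, and 26 had an adjusted p under 0.1, against 37.6%. There 29 had an unadjusted p under 0.05, against 39.8%, and 30 had groups that did not overlap, against 62.7%. The 2 controls and 2 mutants of that fit are the close pairs, which differed by 1.92 and 1.47 times sampling noise. When each close pair was summed to 1 library, 2 against 2, no member had an unadjusted p under 0.05, and Eno3 stood at 0.50, Pgam2 at 0.44 and Slc2a3 at -0.88. The share of all genes at that p was not computed for the summed pairs.

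**Figure D3:**
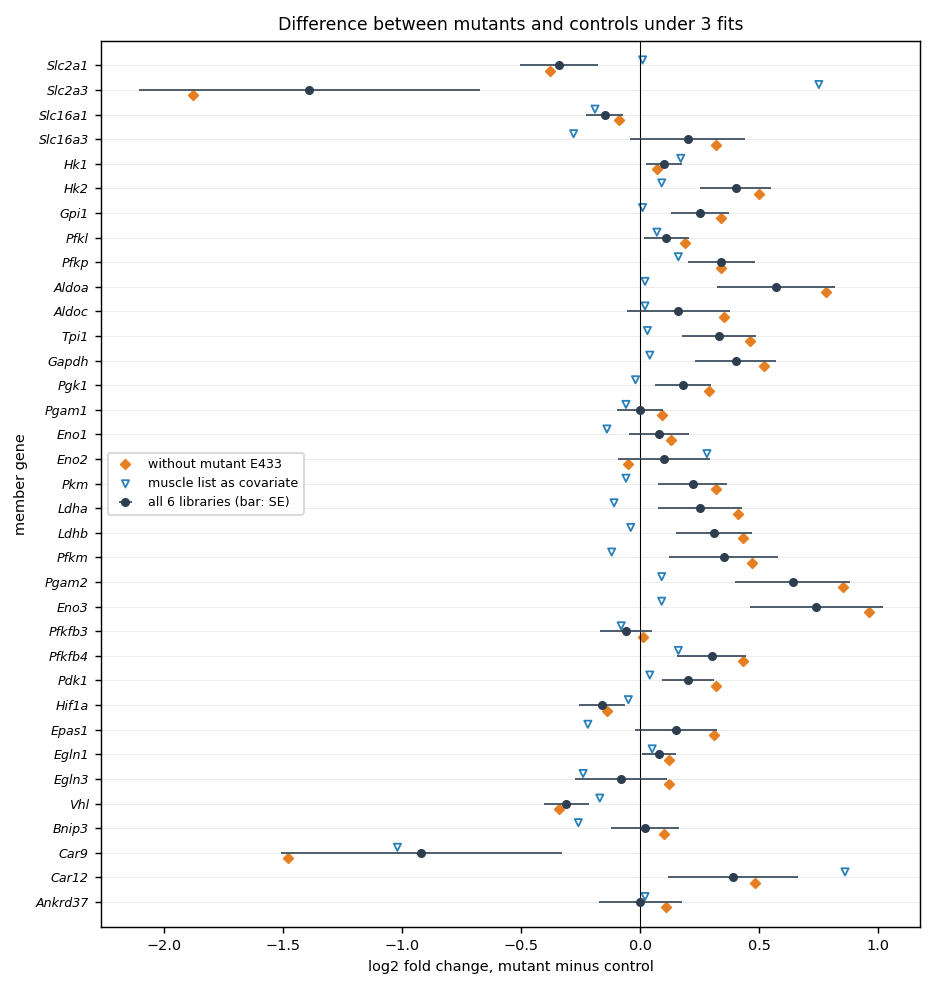
Log2 fold change of each of the 35 genes, mutant minus control, with all libraries (circles, bars for the SE), without mutant E433 (diamonds) and with muscle markers as a covariate (open triangles). The diamonds of most enzymes lie further from 0 than the circles, and the triangles of the muscle isoforms lie at 0.09 for Eno3, 0.09 for Pgam2 and -0.12 for Pfkm.

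Several members have processed pseudogenes, copies of the transcript elsewhere in the genome, that share reads with them. A gene without copies had about 2 counts for each fragment of the second set of files, because each end of a pair was counted. Gapdh had only 0.240 to 0.291, Bnip3 0.947 to 0.997, Pgam1 0.998 to 1.01, Pgk1 1.34 to 1.38 and Eno1 1.36 to 1.38. For Gapdh, 129 annotated pseudogenes with matching stretches of 42 bases held 87.8% of the counts of gene and copies together, and for Pgk1 4 of them held 36.0%. For Pgam1 the copies held 23.3%, for Eno1 22.5% and for Bnip3 9.33%. Pkm had 1.63 to 1.67 counts a fragment, and its copies held 11.8%. In Bnip3, Pgam1, Eno1 and Pkm these shares fall short of the missing counts. The reason for the rest was not tested, so the CPM levels of these genes are uncertain. The CPM of Gapdh given above thus covers a part of its reads, while the TPM rests on fragments shared out among copies. Summed with its copies, Gapdh was at 539.6, 733.4 and 571.4 CPM in controls and at 892.4, 641.7 and 862.4 CPM in mutants, a log2 fold change of 0.38 against 0.40 alone, and Pgk1 was at 0.20 against 0.18. Ankrd37 shares 18.6% of its windows with other genes and overlaps another gene, and strand was not used in counting, so its level is uncertain.

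**Figure D4:**
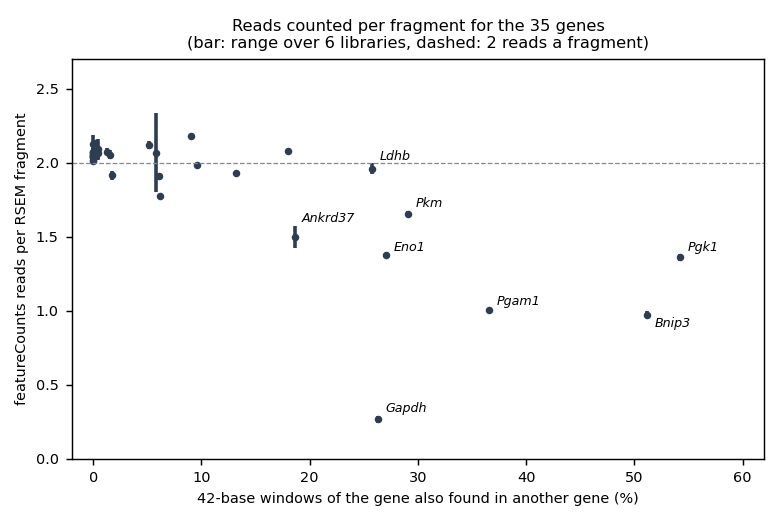
Counted reads per estimated fragment for each of the 35 genes, with the range over the 6 libraries as bars, against the percent of the gene's 42-base windows that also occur in another gene. Most genes lie near 2, and Gapdh, Bnip3, Pgam1, Pgk1, Eno1, Pkm and Ankrd37 lie below.

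Other genes of both pathways were taken from a pair of lists written for this comparison. Of 37 tested genes of glycolysis, pyruvate use and gluconeogenesis, none was called by edgeR, while DESeq2 called Pck1. In edgeR 9 were higher at an unadjusted p under 0.05, against 5.9% of all genes, and 2 were lower, against 4.7%. The median log2 fold change was 0.17. Pck1, the rate-limiting enzyme of gluconeogenesis, which fat and liver also use for glyceride synthesis, had the smallest p of this list. It was at 0, 0.0441 and 0 CPM in the controls (E420, E434, E435) and at 4.62, 0.278 and 4.81 CPM in the mutants (E423, E433, E440) (adjusted p of 0.247, edgeR). A set of 6 adipocyte markers was also highest in E423 and E440, summed at 132.0, 145.3 and 134.2 CPM in controls and at 582.2, 203.0 and 603.4 CPM in mutants, and their part was not tested. Bpgm, which makes the 2,3-bisphosphoglycerate of red cells, was at 75.1, 74.5 and 81.7 CPM in controls and at 33.7, 63.9 and 34.1 CPM in mutants (-0.81 ± 0.26, adjusted p of 0.406, edgeR), beside the lower erythroid markers of E423 and E440 given above. Slc16a7, Pfkfb1 and Gapdhs completed the 5 smallest p-values of this list, at log2 fold changes of -0.44, 0.60 and 1.38.

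Of 34 tested genes of the HIF pathway and hypoxia response, none was called by edgeR or DESeq2. In edgeR 4 were higher at an unadjusted p under 0.05, against 5.9% of all genes, and 3 were lower, against 4.7%. The median log2 fold change was -0.02. Lox, the enzyme that crosslinks collagen, was at 536.5, 592.2 and 511.4 CPM in controls and at 325.6, 403.1 and 317.5 CPM in mutants. Its groups did not overlap, and its difference of -0.65 ± 0.13 had an adjusted p of 0.236 (edgeR). Pgf, a growth factor of the VEGF family, was at 8.44 ± 0.44 CPM (SD, n = 3) in controls and 5.44 ± 0.79 CPM in mutants. Tfrc, the transferrin receptor, Angptl4 and the HIF asparaginyl hydroxylase gene Hif1an stood higher in mutants by 0.48, 0.48 and 0.26. Vegfa, the angiogenic factor that HIF induces, was at 47.1, 48.3 and 50.8 CPM in controls and at 47.2, 53.7 and 48.3 CPM in mutants, a difference of 0.03 ± 0.08, and Arnt, the partner subunit of both HIF alpha proteins, was at 75.2 ± 3.68 CPM in controls and 68.3 ± 7.39 CPM in mutants. For Vegfa the groups overlapped.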

How the data were processed

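The authors sequenced mRNA libraries of rib cage RNA, made with a stranded kit, as read pairs of 42 bases. After alignment to GRCm38 by HISAT2 2.1.0, the authors deposited raw counts per gene from featureCounts 1.6.0 on exons of GENCODE vM25, with each end counted on its own and strand not used, although the kit keeps strand. The header asks for primary alignments, and because pseudogene copies hold many reads, reads that map to several places appear to have been counted once, at their primary place. The authors also deposited expected counts and TPM per gene from STAR 2.7.6 and RSEM 1.2.31. The authors' own DESeq2 1.26.0 comparisons, with fold changes and p-values, and 12 columns of per-sample values beside them were not used.

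Groups came from the labels. Of 55487 gene IDs, 55141 had a symbol in the annotation given (an older GENCODE release on GRCm38). The members, lists and tests were chosen with earlier results of these data known. All 35 members may be named, and pathway genes if called, if among the 5 smallest p-values of their list, or for Vegfa, Arnt and Bpgm. Foxc1 and Foxc2 are named as the genotype check, and markers only where they lead a list. A result on 1 other pathway gene is not reported here.

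Counts of the 26596 genes with at least 10 counts in sum had TMM scaling and entered the quasi-likelihood test of edgeR 4.0.16 (glmQLFit, glmQLFTest) in R 4.3.3, with Benjamini-Hochberg adjustment over all genes and limits of 0.1 on the adjusted p and 1 on the log2 fold change. P-values measure the spread between embryos. On simulated counts for this comparison (26071 genes, 200 changed), edgeR recovered 167 and called 17 others, and DESeq2 1.42.0 recovered 177 and called 50 others. The planted changes were larger than that of any member and sat in genes with more counts than the filter asks. Every gene was given the same spread beyond sampling, and all libraries varied alike, unlike the real ones. The recovery is thus no measure of the power to find differences of the size seen in the members. Expected counts were rounded. Isoform ratios were tested by exact permutation. Alternatives were another scaling, tool, filter, counting, covariates for muscle and cartilage markers, each library left out and, added after seeing the data, counts summed with pseudogene copies (sharing at least 1% of 42-base windows) and close libraries summed. Depth limits the precision of low counts.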

Additional observations from a re-analysis of the deposited data

How the results depend on the processing

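Of 630 recomputed member log2 fold changes, 588 kept their direction and side of the limits, 3 newly passed them and 39, in 17 genes, turned direction, from values between -1.39 (Slc2a3) and 0.35 (Pfkm). The cause was not tested. The number of genes called, 17, became 477 with DESeq2, 35 with robust empirical Bayes, 37 without a filter, 10 with expected counts, 251 with cartilage markers and 2 with muscle markers as a covariate, 0 at an adjusted p of 0.01, and 0 to 1087 when 1 library was left out (1087 without E433, 0 without E420, E435, E423 or E440).

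Members at an unadjusted p under 0.05, 5 in the report, were 8 with DESeq2, against 11.1% of all genes, and 0 with muscle markers as a covariate, against 5.19%. They were 0 to 17 when 1 library was left out (0 without E420 or E440, 1 without E435 or E423, 15 without E433, 17 without E434). The shares of all genes were 25.0% without E433 and 10.7% without E434. Members whose groups did not overlap, 3, were 3 to 24 with 1 library left out (24 without E433, 18 without E434, 5 without E420). Here the shares were 47.3% without E433 and 29.6% without E434. For the other fits that left out 1 library, and with close pairs summed, no share was computed. Their counts are thus not read as results about the members. Pathway genes called, 0, were 2 with DESeq2, 2 with cartilage markers as a covariate, and 0 to 4 with 1 library left out (4 without E433). Without both E434 and E433 there were 2066 genes called, 3 members called, 29 members at p under 0.05, 30 not overlapping and 8 pathway genes called, with medians of 0.43 for general enzymes, 1.04 for muscle isoforms and 0.10 for HIF response genes, Eno2 at -0.07 and Egln3 at 0.03. With close pairs summed, 0 genes were called and 0 members were at p under 0.05, with Pgam1 at -0.03, Eno1 at -0.01, Bnip3 at -0.09 and Ankrd37 at -0.00.

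Muscle markers as a covariate moved the medians to -0.09 for transporters, 0.02 for general enzymes, 0.09 for muscle isoforms, 0.04 for regulators and -0.12 for HIF response genes, and turned Slc2a1 to 0.01, Slc2a3 to 0.75, Slc16a3 to -0.28, Pgk1 to -0.02, Pgam1 to -0.06, Eno1 to -0.14, Pkm to -0.06, Ldha to -0.11, Ldhb to -0.04, Pfkm to -0.12, Epas1 to -0.22 and Bnip3 to -0.26. Cartilage markers turned Aldoc to -0.04, Pgam1 to -0.07 and Ankrd37 to -0.12. Library totals without TMM gave Pgam1 -0.05, Bnip3 -0.02 and Ankrd37 -0.05, while no filter gave Pgam1 -0.00 and Ankrd37 -0.00, and summing pseudogene copies gave Pgam1 -0.00.

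With 1 library left out, the median of the HIF and oxygen sensing genes ran from -0.19 to 0.12 and that of the HIF response genes from -0.06 to 0.10, both highest without E433. The Pfkm to Pfkp ratio difference ran from -0.06 to 0.16, Pgam1 from -0.05 to 0.09, Eno2 from -0.05 to 0.25, Pfkfb3 from -0.12 to 0.01, Egln3 from -0.21 to 0.12, Bnip3 from -0.07 to 0.17 and Ankrd37 from -0.11 to 0.11 (-0.10 without E434). No paired analysis was possible because the embryo numbers are not shared between groups and, although the study compared littermates, the labels do not say which embryos shared a litter. Depth limits Car9 most, at 0.505 to 2.63 CPM.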
